A study of Homo sapiens with 12 samples.

Results

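The 40 genes here are linked to the transcription factor ATF4, and their list was chosen with earlier results of these data known. They comprise 9 regulators, feedback genes and secreted or surface proteins, 12 genes of amino acid synthesis, 7 amino acid transporters and 12 genes of transfer RNA charging and export. All 40 have a row among the 60675 gene rows counted in each of 12 libraries. Each gene was read at its own row and also at the annotated feature with the most reads that overlaps its exons by at least 30 bases on the other strand, and overlaps the exons of no other coding gene there. Such a feature was found for 12 of the 40 genes, and the other 28 could be read at their own row alone. Among all coding genes with a row, 5388 of 19586 had such a feature.

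ATF4 acts in the integrated stress response. When the translation factor eIF2 is phosphorylated, by PERK under stress of the endoplasmic reticulum or by GCN2 when uncharged transfer RNAs accumulate, most translation slows while ATF4 messenger RNA is translated more. ATF4 pairs with C/EBP proteins at composite promoter elements and raises genes that make and import amino acids, load them onto transfer RNAs and feed back on the response. Because ATF4 is controlled largely at translation, the level of its RNA need not follow its activity.

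The cells were HSC-3, a human oral squamous carcinoma line, and total RNA was sequenced from 4 libraries in each of 3 groups. The first group received cyclopiazonic acid (CPA) at 25 µM for 3 hours together with synta-66, an inhibitor of ORAI calcium channels at a dose that the sources used here do not state. The second group received CPA alone at the same dose and time, and the third was untreated. CPA inhibits the SERCA pump and so empties calcium from the endoplasmic reticulum. No group given synta-66 alone was analysed here, so the effect of the inhibitor is seen only on top of CPA. All groups are 1 cell line, and separate cultures for the 4 libraries of a group are not mentioned in the labels. The p-values therefore reflect the spread among these libraries, which could be technical. In bulk RNA, fewer cells of a type and less RNA per cell cannot be told apart.

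Between 2819486 and 5458858 reads per library were assigned to genes, which was 3.58% to 9.4% of the uniquely aligned reads. CPA with synta-66 replicates 1 and 4 and untreated replicate 3 stood apart, with 53.5%, 49.4% and 39.6% of their gene reads at the 2 mitochondrial ribosomal RNAs, and results that change without these 3 libraries are given with both values. The 12 squamous epithelial markers summed to between 7082 and 8751 CPM in every library (CPM is a count scaled to the total of its library), while 6 fibroblast markers summed to at most 1.25 CPM, with COL3A1, DCN and LUM at 0.

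At the 12 genes with a feature on the other strand, 9 had more reads there than at their own row, with a median ratio of 28.5 and a range of 0.234 to 544. MTHFD2, a mitochondrial enzyme of the folate cycle, averaged 7.5 reads in its own row and 4081 at ENSG00000264324. SLC1A5, a glutamine transporter, had 141 reads at its own row and 4595 at ENSG00000275719. The 7 genes SHMT2, MTHFD2, PYCR1, SLC7A5, SLC1A5, WARS1 and CARS1 had at least 509 reads there in every library. The other 5 were shallow, and GARS1, SLC6A9 and YARS1 had fewer reads at that feature than at their own row. A feature's own transcript cannot be told apart from that of the gene opposite it, whichever strand the reads came from.

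**Figure D1:**
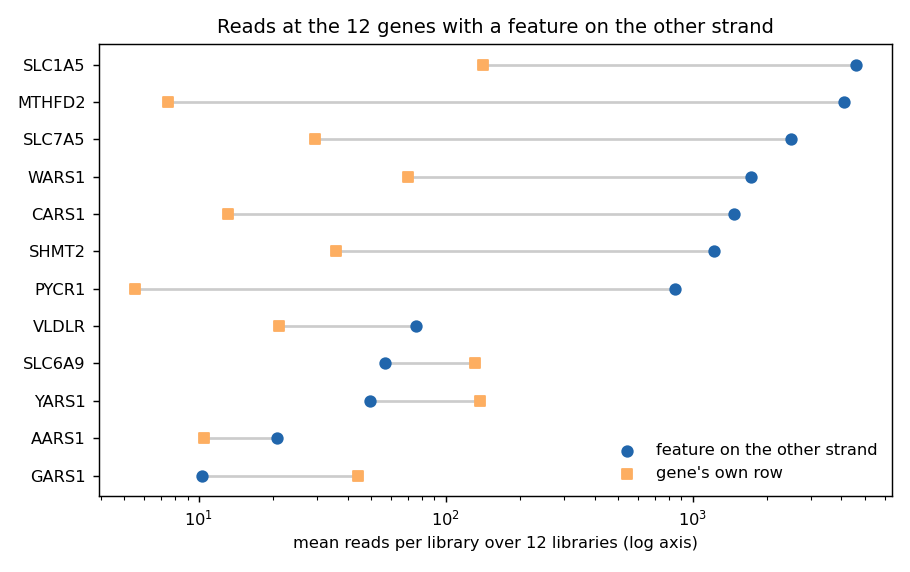
Mean reads per library over 12 libraries (log axis) at the own row (squares) and at the feature on the other strand (circles) of the 12 genes that have one. Of these genes, 9 have more reads at the feature on the other strand, and the widest gap is that of MTHFD2, with a ratio of 544.

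The coding bases of MTHFD2, SLC7A5 and WARS1 that lie under these features are shown on the gene's own strand, from GRCh38, because the overlap with the gene is this short. The counts are totals over the whole feature, and where in it the reads lie was not examined. They lie at chr2:74211741-74211827 on the plus strand in exon 7 of MTHFD2, at chr16:87836532-87836647 on the minus strand in exon 8 of SLC7A5, and at chr14:100353791-100353869 on the minus strand in exon 6 of WARS1. These are 87 of 295 overlapping bases in MTHFD2, 116 of 271 in SLC7A5 and 79 of 385 in WARS1. The other bases are untranslated or lie in exons of other transcripts of the gene.
MTHFD2: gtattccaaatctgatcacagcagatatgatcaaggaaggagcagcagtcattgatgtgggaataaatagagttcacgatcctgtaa
SLC7A5: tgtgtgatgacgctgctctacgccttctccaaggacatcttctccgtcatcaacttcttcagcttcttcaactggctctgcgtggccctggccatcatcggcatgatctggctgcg
WARS1: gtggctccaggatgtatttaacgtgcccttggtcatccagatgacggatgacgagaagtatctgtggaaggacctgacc

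The core of the composite ATF4 and C/EBP element was searched as TGATGNAA on either strand, in RefSeq promoters of 300 bases on GRCh38.p14 that run from 250 before to 50 after each listed start site. Of the 40 genes, 34 had an entry, with 50 start sites in all, and 13 of the 34 genes (38.2%) held the core at a listed start site, against 1217 of 27305 genes (4.46%) in the whole table. By start site the shares were 13 of 50 (26%) and 1270 of 35116 (3.62%). The genes are on the list because they are known targets of ATF4, some through this element, so the share is a description of the list and not a finding of these libraries. The core was found at ASNS, CHAC1, GOT1, SLC3A2, SLC7A1, SLC1A5, SLC1A4, GARS1, AARS1, NARS1, IARS1, TARS1 and CARS1. It was not found in the windows of MTHFD2, VLDLR, STC2, SARS1 or WARS1. SHMT2, PYCR1, PSPH, GPT2, YARS1 and LARS1 have no entry. Windows around the core, in capitals, are shown for 2 textbook ATF4 targets, CHAC1 and ASNS, and for the 3 genes with a core that differed between groups below.
CHAC1: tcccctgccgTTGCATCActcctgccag
ASNS: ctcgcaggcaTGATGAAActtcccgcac
SLC3A2: gcaggactccTTACATCAgctcc
SLC1A5: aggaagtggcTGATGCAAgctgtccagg
CARS1: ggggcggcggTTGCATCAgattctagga

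These lie at chr15:40953252-40953279 (plus strand, core from -209), chr7:97872459-97872486 (minus, core from -68), chr11:62881726-62881748 (plus, core from 38), chr19:46784894-46784921 (minus, core from -97) and chr11:3057408-3057435 (minus, core from -2), in the order shown, with positions counted from the listed start site. ASNS and CARS1 have 2 listed start sites and SLC3A2 and SLC1A5 have 3, and in each the core lies at 1 of them. The ENSG00000275719 feature that reads SLC1A5 overlaps its first exon at another start site.

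Adding synta-66 to CPA was followed by higher levels of several of these genes, in each of the 4 roles. At features on the other strand, MTHFD2 rose, and SLC1A5, PYCR1, WARS1, CARS1 and SHMT2 were higher with adjusted p under 0.05 but less than 1.5-fold. At their own rows, SHMT2, SARS1, WARS1, STC2 and SLC3A2 rose. CPA alone raised 1 reading, that of VLDLR, and the readings of the transporters SLC1A5 and SLC7A5 were lower with CPA by less than 1.5-fold. A gene is said to have risen or fallen where edgeR's quasi-likelihood test, adjusted over all 14911 tested rows by Benjamini-Hochberg, gave p under 0.05 and the change was at least 1.5-fold.

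For CPA with synta-66 against CPA, 1 of the 12 features on the other strand rose and 0 fell, where 2.7% of 3956 coding genes read in this way rose and 4.37% fell. DESeq2 called 2 of the 12, adding SLC1A5. Without a minimum fold 6 of the 12 were higher and 0 lower, against 6.52% of the 3956 genes in each direction. In these 6, picked by the same test, every CPA with synta-66 library lay above every CPA library. Such a gap goes with a low p and is no further result, and its share over the 3956 genes was not counted. The median log2 change of the 12 was 0.436, and over the 3956 genes it was -0.001.

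Against untreated cells, 4 of the 12 rose with CPA and synta-66 and 0 fell, where 2.88% of the 3956 genes rose and 1.29% fell. Without a minimum fold 5 were higher and 1 was lower, where the background was 4.68% and 2.17%. The median was 0.308, against 0.015 over the 3956 genes. With CPA alone, 1 of the 12 rose and 0 fell, where 3.44% rose and 1.31% fell. Without a minimum fold 1 was higher and 2 were lower, where the background was 5.69% and 2.91%. The median was -0.097, against 0.030 over the 3956 genes. The comparisons share groups, so they are not independent of each other.

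**Figure D2:**
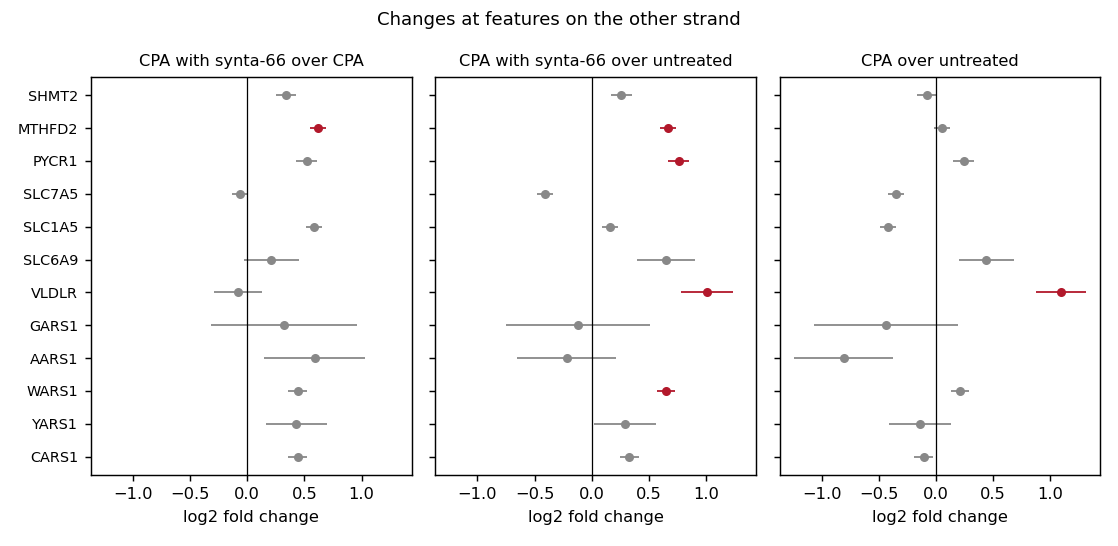
Log2 fold change ± SE of the 12 genes read at a feature on the other strand, in 3 comparisons. Red points rose by the call rule and grey points were not called. MTHFD2 is called in both comparisons that hold synta-66, and VLDLR in both comparisons against untreated cells.

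Among the 9 regulators, feedback genes and secreted or surface proteins, VLDLR is the only one read on the other strand. VLDLR is a lipoprotein receptor that ATF4 raises under stress of the endoplasmic reticulum. At VLDLR-AS1 it had 21.1, 19.6, 21.1 and 30.9 CPM in cells given CPA with synta-66, 27.4, 21.4, 25.8 and 22.4 CPM with CPA, and 13.7, 8, 10 and 13.8 CPM in untreated cells. Every treated library lay above every untreated one, and the treated groups overlapped each other. The log2 change was 1.09 ± 0.22 (SE) for CPA against untreated (edgeR adjusted p = 0.000827) and 1.01 ± 0.23 with CPA and synta-66 against untreated (edgeR adjusted p = 0.00302). Without the 3 libraries rich in mitochondrial ribosomal RNA the second change was 0.76 and no longer called (edgeR adjusted p = 0.176). CPA with synta-66 and CPA differed by -0.08 ± 0.21 (edgeR adjusted p = 0.901). At its own row VLDLR averaged 5.62 ± 1.83, 5.29 ± 0.913 and 4.72 ± 1.9 CPM (SD, n = 4) with CPA and synta-66, with CPA and without treatment, and no comparison was called.

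Among the synthesis genes, MTHFD2, PYCR1 and SHMT2 could be read on the other strand. MTHFD2 at ENSG00000264324 had 1368, 1434, 1466 and 1298 CPM in cells given CPA with synta-66, 904, 860, 879 and 977 CPM with CPA, and 816, 883, 948 and 848 CPM in untreated cells. All CPA with synta-66 libraries lay above all others, and the CPA and untreated libraries overlapped. MTHFD2 rose by 0.62 ± 0.07 on the log2 scale against CPA (edgeR adjusted p = 1.2e-08) and by 0.67 ± 0.07 against untreated (edgeR adjusted p = 1.62e-09), and CPA alone differed from untreated by 0.05 ± 0.07 (edgeR adjusted p = 0.819). A second feature over its last exon, SLC4A5, overlaps it by 1324 bases and averaged 569 ± 33.3 CPM with CPA and synta-66, 436 ± 29.2 CPM with CPA and 420 ± 28.4 CPM without treatment (SD, n = 4). There the change against CPA was 0.38 ± 0.08 (edgeR adjusted p = 0.000581), under the fold required for a call, and again no CPA with synta-66 library overlapped the other groups. Both features are annotated as coding genes themselves. ENSG00000264324 spans chr2:74211604-74363377, and 295 of its exon bases overlap those of MTHFD2. Whether the counts at either feature are of MTHFD2 or of the feature's own gene was not tested.

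PYCR1, which makes the last step of proline synthesis, was read at ENSG00000263585. It had 302, 286, 290 and 268 CPM in cells given CPA with synta-66, 231, 171, 188 and 207 CPM with CPA, and 181, 177, 159 and 158 CPM in untreated cells. The CPA with synta-66 libraries lay above all others, and the CPA and untreated libraries overlapped. PYCR1 rose by 0.76 ± 0.09 on the log2 scale against untreated (edgeR adjusted p = 8.09e-08), was higher by 0.52 ± 0.09 against CPA, under 1.5-fold (edgeR adjusted p = 7.98e-05), and CPA differed from untreated by 0.24 ± 0.09 (edgeR adjusted p = 0.166).

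SHMT2 converts serine to glycine in mitochondria, and its readings differed in size. At ENSG00000276727 it had 339, 366, 377 and 345 CPM with CPA and synta-66, 329, 229, 277 and 293 CPM with CPA, and 296, 311, 259 and 325 CPM in untreated cells, and the first group did not overlap the others. The change against CPA was 0.34 ± 0.09 (edgeR adjusted p = 0.012), under 1.5-fold, and 0.26 ± 0.09 against untreated (edgeR adjusted p = 0.108). The first no longer passed the test without CPA with synta-66 replicate 3 (0.32, edgeR adjusted p = 0.0532) or CPA replicate 2 (0.25, edgeR adjusted p = 0.0822). At its own row, with far fewer reads, SHMT2 had 13.4, 20.5, 20.1 and 15.7 CPM with CPA and synta-66, 6.19, 6.28, 3.48 and 6.48 CPM with CPA, and 6.45, 5.8, 7.19 and 2.64 CPM in untreated cells. Here it rose by 1.65 ± 0.32 on the log2 scale against CPA (edgeR adjusted p = 0.000307) and by 1.66 ± 0.32 against untreated (edgeR adjusted p = 0.000443), with no overlap. The own row of SHMT2 lies over 33 bases of an exon of NDUFA4L2 on the other strand, so reads of the 2 genes cannot be told apart there. NDUFA4L2, a mitochondrial protein induced by hypoxia, is in turn the second feature opposite SHMT2. Its row averaged 38.8 ± 5.52 CPM with CPA and synta-66, 19 ± 6.88 CPM with CPA and 24.8 ± 2 CPM without treatment (SD, n = 4). That row rose by 1.03 ± 0.19 on the log2 scale against CPA (edgeR adjusted p = 0.000241), without overlap. Against untreated it rose by 0.64 ± 0.19 (edgeR adjusted p = 0.0472), also without overlap. Second features were left out of the checks under other settings.

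Among the transporters, SLC1A5 was lower with CPA. At ENSG00000275719, over the first exon of SLC1A5, it had 1424, 1436, 1234 and 1453 CPM in cells given CPA with synta-66, 958, 887, 965 and 901 CPM with CPA, and 1253, 1257, 1159 and 1308 CPM in untreated cells. Every CPA library lay below every library of the other groups, and the other groups overlapped. CPA was lower than untreated by -0.42 ± 0.07 (edgeR adjusted p = 3.38e-05), and CPA with synta-66 was higher than CPA by 0.58 ± 0.07 (edgeR adjusted p = 4.45e-08). The second value lies just under the 1.5-fold limit of 0.585, and DESeq2, 2 other scalings and another filter placed it above. CPA with synta-66 and untreated differed by 0.16 ± 0.07 (edgeR adjusted p = 0.254). At its own row SLC1A5 averaged 39.6 ± 7.1, 28.6 ± 4.51 and 40.5 ± 9.96 CPM with CPA and synta-66, with CPA and without treatment (SD, n = 4), and no comparison passed the test.

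SLC7A5 imports large neutral amino acids together with its heavy chain SLC3A2. SLC7A5 at ENSG00000260466 had 611, 594, 531 and 506 CPM with CPA and synta-66, 557, 601, 600 and 573 CPM with CPA, and 760, 753, 759 and 707 CPM in untreated cells. Both treated groups lay below the untreated one and overlapped each other. The changes were -0.35 ± 0.07 for CPA against untreated (edgeR adjusted p = 0.00115) and -0.41 ± 0.07 with CPA and synta-66 against untreated (edgeR adjusted p = 0.000165), both under 1.5-fold, and -0.06 ± 0.07 between the treated groups (edgeR adjusted p = 0.765). SLC3A2 has no readable feature on the other strand. At its own row it had 15, 10.6, 14.7 and 12.2 CPM with CPA and synta-66, 8.77, 5.35, 7.57 and 3.89 CPM with CPA, and 7.91, 7, 13.1 and 7.32 CPM in untreated cells. SLC3A2 rose by 1.04 ± 0.32 on the log2 scale against CPA without overlap (edgeR adjusted p = 0.0342), and against untreated the groups overlapped (0.58 ± 0.31, edgeR adjusted p = 0.405). The first call ended when CPA with synta-66 replicate 1 or 3, or CPA replicate 2 or 4, was left out, with edgeR adjusted p between 0.0859 and 0.13. Without the 3 libraries rich in mitochondrial ribosomal RNA the change was 0.95 and not called (edgeR adjusted p = 0.163).

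Among the synthetases, which load amino acids onto transfer RNAs, WARS1 (tryptophan) rose at both readings against untreated cells. At ENSG00000258666 it had 514, 559, 582 and 580 CPM with CPA and synta-66, 460, 352, 421 and 416 CPM with CPA, and 365, 383, 368 and 310 CPM in untreated cells. It rose there by 0.65 ± 0.08 on the log2 scale against untreated (edgeR adjusted p = 2.68e-07) and was higher by 0.44 ± 0.08 against CPA, under 1.5-fold (edgeR adjusted p = 0.000237). The CPA with synta-66 libraries did not overlap the others. At its own row WARS1 had 40.2, 22.8, 30.2 and 37.4 CPM with CPA and synta-66, 21.7, 15.1, 9.82 and 10.6 CPM with CPA, and 13.1, 13.4, 10.9 and 7.91 CPM in untreated cells. It rose by 1.19 ± 0.24 against CPA (edgeR adjusted p = 0.000612) and by 1.49 ± 0.24 against untreated (edgeR adjusted p = 3.54e-05), and without the 3 libraries rich in mitochondrial ribosomal RNA the first change was 0.86 and not called (edgeR adjusted p = 0.076). The own row lies over 287 bases of WDR25 exons on the other strand.

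CARS1 (cysteine) at CARS1-AS1 had 418, 473, 462 and 426 CPM with CPA and synta-66, 362, 271, 332 and 348 CPM with CPA, and 359, 347, 389 and 325 CPM in untreated cells. The first group lay above the others, by 0.44 ± 0.08 on the log2 scale against CPA (edgeR adjusted p = 0.000333) and by 0.33 ± 0.08 against untreated (edgeR adjusted p = 0.0152), both under 1.5-fold. The second no longer passed without CPA with synta-66 replicate 2 or 3 or untreated replicate 2, with edgeR adjusted p between 0.0566 and 0.069. SARS1 (serine) was read at its own row alone, with no coding exon on the other strand. It had 12.6, 15.3, 15.2 and 18.3 CPM with CPA and synta-66, 5.16, 4.42, 4.71 and 6.91 CPM with CPA, and 8.74, 3.8, 3.75 and 12 CPM in untreated cells. SARS1 rose by 1.53 ± 0.34 against CPA (edgeR adjusted p = 0.00186) and by 1.12 ± 0.33 against untreated (edgeR adjusted p = 0.0426), in each case without overlap. The second call ended on leaving out CPA with synta-66 replicate 2, 3 or 4 or untreated replicate 1, 2 or 3, with edgeR adjusted p between 0.0563 and 0.185, and without the 3 libraries rich in mitochondrial ribosomal RNA it was 0.332.

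**Figure D3:**
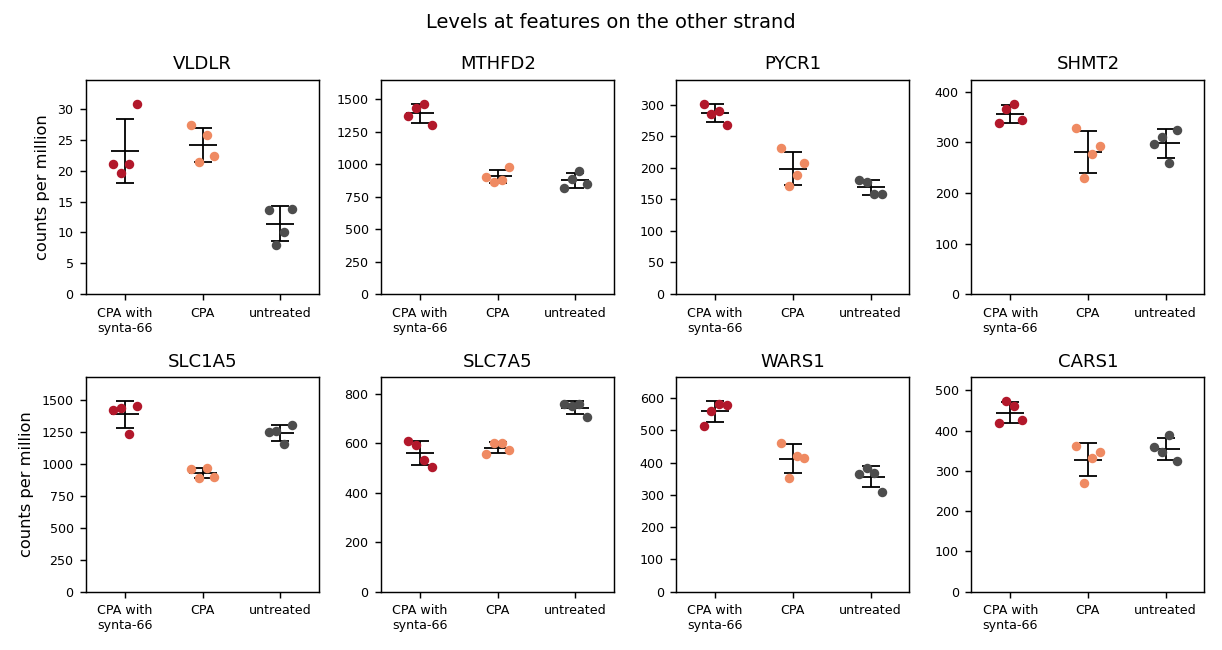
Levels in CPM at the feature on the other strand of 8 genes, 1 point per library, with the mean and SD of the 4 libraries in black. The CPA with synta-66 points of MTHFD2, PYCR1, SHMT2, WARS1 and CARS1 lie above both other groups, CPA is lowest at SLC1A5, and untreated cells are highest at SLC7A5 and lowest at VLDLR.

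The remaining readings on the other strand were shallow. SLC6A9, a glycine transporter, averaged 17.2 ± 4.32 CPM at CCDC24 with CPA and synta-66, 15 ± 2.51 CPM with CPA and 11 ± 1.34 CPM without treatment. YARS1 (tyrosine) at S100PBP averaged 14.8 ± 3.59, 11.1 ± 3.32 and 12.3 ± 2.92 CPM in the same order (SD, n = 4). AARS1 (alanine) at DDX19B and GARS1 (glycine) at GARS1-DT stayed under 10 CPM in every library. None of these 4 was called in any of the 3 comparisons.

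Of the 40 own rows, 34 passed the filter of at least 5 reads in 2 of the 4 libraries of a group. ASNS, SESN2, GOT1, GPT2, CTH and CBS did not pass. CTH and CBS, which make cysteine from homocysteine, had 0 reads in all 12 libraries, where 3 reads correspond to 0.6 to 1.31 CPM. Reads that did not align uniquely were not counted, so these rows cannot show whether CBS or CTH was expressed. Whether either gene lost reads in this way was not tested. Own rows averaged between 0 and 141 reads, with a median of 11.8 over the 40 genes, and 22 of the 34 tested rows were under 10 CPM in every group mean, so these rows are the least precise. The own rows of SHMT2, MTHFD2, SLC6A9, AARS1, WARS1 and YARS1 lie over exons of a coding gene on the other strand.

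For CPA with synta-66 against CPA, 5 of the 34 own rows rose and 0 fell, where 1.94% of all 14911 rows rose and 2.82% fell. DESeq2 gave the same counts. The median log2 change of the 34 rows was 0.723, with 28 of them above 0, against -0.037 over all rows. Over the 6053 tested own rows of coding genes that lie over no coding exon on the other strand, 1.44% rose, 2.2% fell and the median was -0.038. Of these 6053 rows, 48.1% had a change above 0. The summed level of all such rows was 51736 to 54063 CPM with CPA and synta-66, 49276 to 52340 CPM with CPA and 52065 to 56674 CPM in untreated cells. Without the 3 libraries rich in mitochondrial ribosomal RNA, 2 of the 5 calls were made, SHMT2 and SARS1.

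For CPA with synta-66 against untreated, 3 own rows rose and 0 fell, where 1.66% of all rows rose and 1.24% fell, and the median was 0.401 against -0.056 over all rows. For CPA against untreated, edgeR called 0 own rows in either direction, where 1.8% of all rows rose and 1.05% fell. At an unadjusted p under 0.05 there was 1 higher row and there were 3 lower ones, and DESeq2 also called 0. The share of all rows at that p was not counted, here or for the lists below, so such counts have no background. The median was -0.214, against -0.007 over all rows.

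ATF4 itself showed no called change at its own row, the only place where it could be read. Its own row had 5.27, 2.48, 3.44 and 9.14 CPM with CPA and synta-66, 4.65, 3.26, 3.48 and 3.67 CPM with CPA, and 4.79, 2.8, 4.38 and 2.93 CPM in untreated cells, and the groups overlapped. Its log2 changes were 0.38 ± 0.47 between the treated groups (edgeR adjusted p = 0.743) and 0.01 ± 0.47 for CPA against untreated (edgeR adjusted p = 0.996). The row averaged 15.5 reads per library, and its SE sets the size of change that this depth could show. How much of the ATF4 RNA this row holds is not known. Of the 12 genes with a feature on the other strand, 9 had more reads there than at their own row.

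TRIB3, a pseudokinase that dampens the response, had 3.65, 3.83, 9.09 and 7.83 CPM with CPA and synta-66, 2.32, 2.09, 4.09 and 1.51 CPM with CPA, and 3.12, 4.2, 3.44 and 4.69 CPM in untreated cells. The treated groups overlapped, and the change of 1.27 ± 0.47 did not pass (edgeR adjusted p = 0.102). CHAC1, which degrades glutathione, had 0.811, 3.15, 2.7 and 3.92 CPM with CPA and synta-66, 0.516, 0, 1.64 and 0.216 CPM with CPA, and 0.208, 0.8, 0.313 and 0.586 CPM in untreated cells. Most of the CPA and untreated values are within the level of 3 reads. The CHAC1 libraries with synta-66 lay above the untreated ones and overlapped those with CPA, and neither comparison passed (edgeR adjusted p = 0.206 against untreated and 0.207 against CPA). ASNS, which makes asparagine, had 0, 0.451, 0 and 3.48 CPM with CPA and synta-66, 0.258, 0.233, 0 and 0.432 CPM with CPA, and 1.46, 0.2, 0 and 0.293 CPM in untreated cells, too few reads to test.

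STC2, a secreted glycoprotein raised by stress of the endoplasmic reticulum, had 11.4, 10.4, 16 and 14.8 CPM with CPA and synta-66, 6.19, 5.58, 5.73 and 7.12 CPM with CPA, and 8.33, 4.4, 9.06 and 8.5 CPM in untreated cells. The CPA with synta-66 libraries lay above all others. STC2 rose by 1.09 ± 0.31 against CPA (edgeR adjusted p = 0.0222), and the change of 0.80 ± 0.31 against untreated did not pass (edgeR adjusted p = 0.169). The call ended on leaving out CPA with synta-66 replicate 3 or 4, or CPA replicate 2 or 3, with edgeR adjusted p between 0.0576 and 0.0979, and without the 3 libraries rich in mitochondrial ribosomal RNA it was 0.106. PPP1R15A, the phosphatase subunit that reverses eIF2 phosphorylation, averaged 13.1 ± 3.1 CPM with CPA and synta-66, 7.98 ± 1.94 CPM with CPA and 6.44 ± 4.19 CPM without treatment (SD, n = 4), and was not called.

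**Figure D4:**
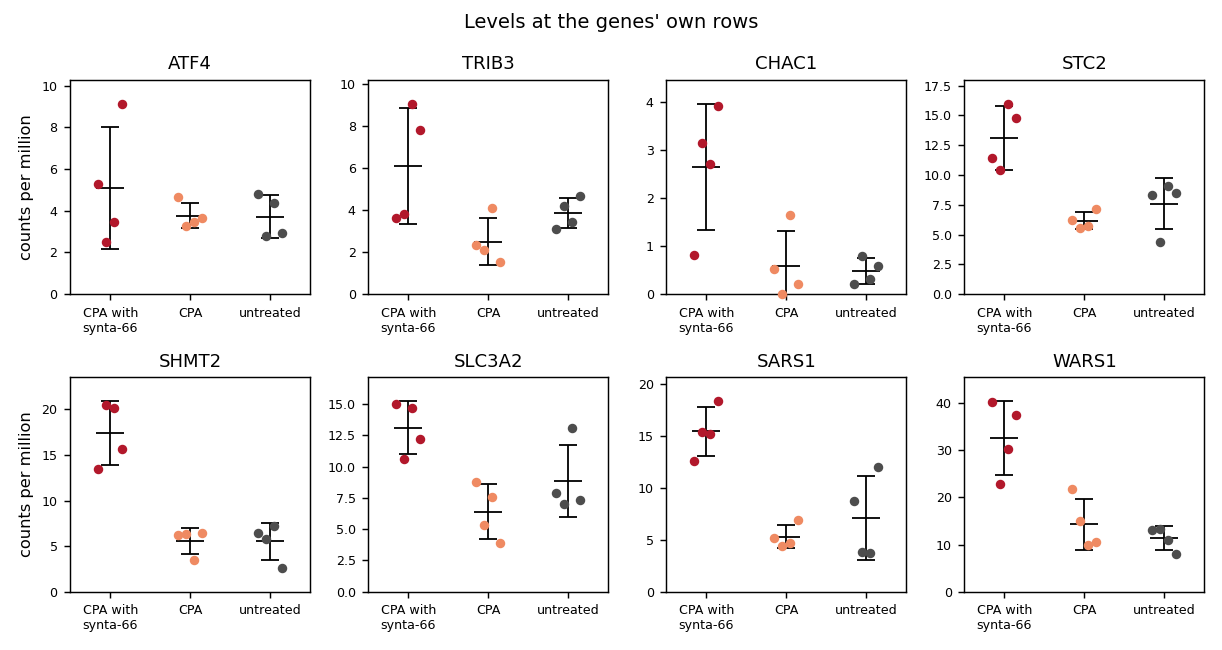
Levels in CPM at the own rows of 8 genes, 1 point per library, with the mean and SD of the 4 libraries in black. SHMT2, SLC3A2, SARS1, STC2 and WARS1 have all 4 CPA with synta-66 points above all CPA points, while ATF4, TRIB3 and CHAC1 overlap.

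**Figure D5:**
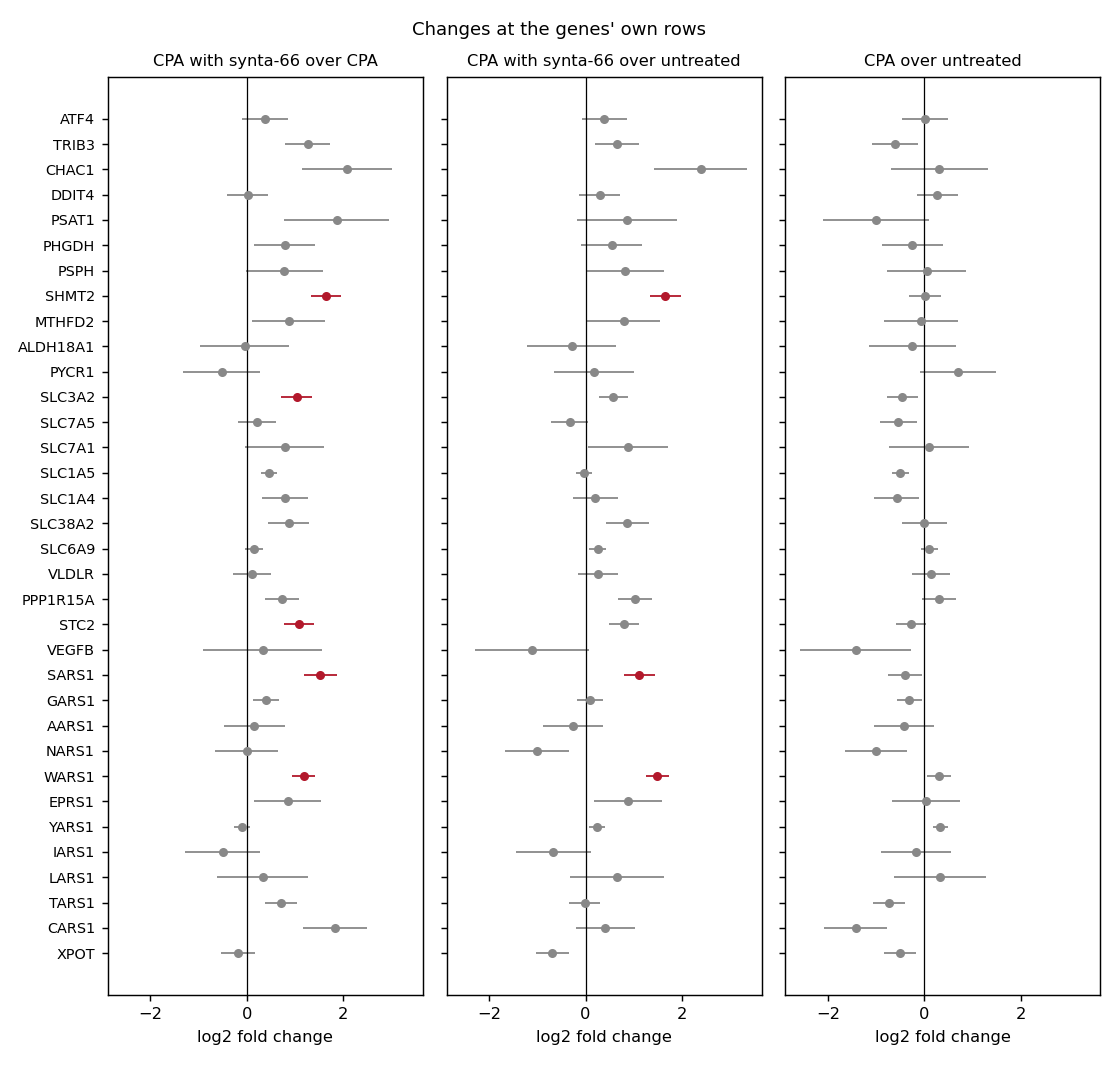
Log2 fold change ± SE of the 34 tested own rows in 3 comparisons. Red points rose by the call rule and grey points were not called, and 28 of the 34 points lie above 0 for CPA with synta-66 over CPA. Of 6053 own rows of coding genes, 48.1% lie above 0 in that comparison.

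The other own rows were not called and are given by role. Among the regulators and secreted proteins, DDIT4, which restrains mTORC1, averaged 5.77 ± 2.99 CPM with CPA and synta-66, 5.75 ± 1.62 CPM with CPA and 4.84 ± 2.45 CPM without treatment. All 8 tested rows of this role had a log2 change above 0 between the treated groups, from 0.02 to 2.08, and 1 was called. For this role and those below, the share above 0 over the 6053 own rows of coding genes was 48.1%. VEGFB, an endothelial growth factor, held the fewest reads of these rows, between 0 and 3.52 CPM. Among the serine pathway enzymes, PHGDH averaged 3.27 ± 1.75, 1.86 ± 0.479 and 2.27 ± 1.84 CPM in the same order and PSAT1 1.62 ± 1.35, 0.415 ± 0.403 and 0.88 ± 0.659 CPM (SD, n = 4). PSPH of the same pathway, ALDH18A1 of proline synthesis, and the own rows of MTHFD2 and PYCR1 all had group means under 3 CPM. The 7 tested synthesis rows ranged from -0.52 to 1.87 between the treated groups.

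All 7 transporter rows had a log2 change above 0 between the treated groups, from 0.15 to 1.04, with SLC3A2 called. SLC38A2, which imports small neutral amino acids, averaged 7.58 ± 0.759 CPM with CPA and synta-66, 4.24 ± 3.57 CPM with CPA and 4.19 ± 1.21 CPM without treatment (SD, n = 4). SLC7A1 and SLC1A4, which import cationic and small neutral amino acids, averaged 2.33 ± 2.09 and 4.84 ± 1.38 CPM with CPA and synta-66, 1.28 ± 0.624 and 2.81 ± 1.12 CPM with CPA, and 1.17 ± 0.424 and 4.14 ± 1.59 CPM without treatment. The 12 rows of transfer RNA charging and export ranged from -0.50 to 1.84, with 8 above 0 and 2 called. TARS1 (threonine) averaged 11.6 ± 3.21, 7.06 ± 2.4 and 11.9 ± 5.19 CPM with CPA and synta-66, with CPA and without treatment (SD, n = 4). NARS1 (asparagine), EPRS1 (glutamate and proline), IARS1 (isoleucine) and LARS1 (leucine) had group means under 5 CPM and changes of -0.00 ± 0.66, 0.85 ± 0.70, -0.50 ± 0.78 and 0.33 ± 0.94 between the treated groups. XPOT, which exports transfer RNAs from the nucleus, averaged 7.19 ± 4.57, 8.22 ± 0.405 and 11.6 ± 2.24 CPM in the same order.

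Related genes outside the list were counted in the same fit, and these shares are the background for each list below. Between the treated groups, 1.94% of all 14911 rows rose and 2.82% fell. Of the 3956 genes read on the other strand, 2.7% rose and 4.37% fell. With CPA and synta-66 against untreated, 1.66% and 2.88% rose and 1.24% and 1.29% fell, in the same order. With CPA against untreated, 1.8% and 3.44% rose and 1.05% and 1.31% fell. Of 12 other cytosolic synthetases and their complex proteins, 8 own rows were tested, 1 rose between the treated groups, 2 with CPA and synta-66 against untreated and 1 with CPA against untreated. MARS1 (methionine) was called in all 3 comparisons, and its row averaged 2574 ± 162 CPM with CPA and synta-66, 715 ± 54.5 CPM with CPA and 213 ± 8.42 CPM without treatment (SD, n = 4). This was a rise of 1.85 ± 0.07 between the treated groups (edgeR adjusted p = 1.65e-23). That row lies over 355 exon bases of DDIT3, which encodes the stress factor CHOP, and 519 of ARHGAP9 on the other strand, so it cannot be read as MARS1. KARS1 (lysine), whose row lies over TERF2IP, rose by 0.59 ± 0.16 against untreated (edgeR adjusted p = 0.0253). At features on the other strand 4 of these genes were tested and 0 were called by edgeR or DESeq2 in any comparison. AIMP2, a protein of the complex read at EIF2AK1, was higher between the treated groups by 0.27 ± 0.07, under 1.5-fold (edgeR adjusted p = 0.0104). For CPA against untreated, 1 was lower at an unadjusted p under 0.05.

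Of 17 mitochondrial synthetases, 10 own rows were tested. The row of CARS2 (cysteine), over ING1, fell by 0.69 between the treated groups (edgeR adjusted p = 0.0255). Of 6 read on the other strand, edgeR and DESeq2 called 0, and at an unadjusted p under 0.05 there was 1 higher between the treated groups and 1 lower for CPA against untreated.

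Of 28 other genes of amino acid transport and metabolism, 11 were read on the other strand, with 2 rising and 0 falling between the treated groups and a median of -0.007. BCAT1, a transaminase of branched-chain amino acids, averaged 99.6 ± 7.81 CPM at ENSG00000256482 with CPA and synta-66, 59.7 ± 5.52 CPM with CPA and 78.1 ± 9.47 CPM without treatment (SD, n = 4), and rose by 0.74 ± 0.12 between the treated groups (edgeR adjusted p = 1.25e-05). GCLC, the catalytic subunit of glutathione synthesis, averaged 111 ± 5.41 CPM at GCLC-AS1 with CPA and synta-66, 98.9 ± 7.71 CPM with CPA and 66.5 ± 6.32 CPM without treatment, and rose by 0.74 ± 0.11 with CPA and synta-66 against untreated (edgeR adjusted p = 5.7e-06). The cystine importer SLC7A11, read at SLC7A11-AS1, rose by 1.55 ± 0.10 between the treated groups (edgeR adjusted p = 6.97e-16), rose by 0.62 ± 0.09 with CPA and synta-66 against untreated (edgeR adjusted p = 1.03e-05) and fell by 0.93 with CPA (edgeR adjusted p = 1.72e-09). Its own row was not called, with changes of 0.12 ± 0.38 between the treated groups (edgeR adjusted p = 0.914) and 0.16 ± 0.38 with CPA (edgeR adjusted p = 0.907). Of 21 own rows tested, GPT, an alanine transaminase, fell by 0.78 with CPA (edgeR adjusted p = 0.0295) and by 0.75 with CPA and synta-66 against untreated (edgeR adjusted p = 0.0488).

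Of 18 genes of eIF2 kinases, eIF2B and translation feedback, 7 were read on the other strand, and 1, EIF2AK3, rose in each comparison. EIF2AK3 encodes PERK, and at ENSG00000225420 it averaged 670 ± 41.8 CPM with CPA and synta-66, 317 ± 7.79 CPM with CPA and 161 ± 16 CPM without treatment (SD, n = 4). Its log2 change was 1.08 ± 0.08 between the treated groups (edgeR adjusted p = 9.67e-14) and 0.98 ± 0.08 for CPA against untreated (edgeR adjusted p = 3.66e-12). None of the 15 tested own rows of this list was called by edgeR or DESeq2. At an unadjusted p under 0.05, 2 were higher and 1 lower between the treated groups, and 2 were lower for CPA against untreated. Of the 2 higher rows, EIF2AK1 also passed the adjusted test, by 0.27 ± 0.07, under 1.5-fold (edgeR adjusted p = 0.0104). That row is the one at which AIMP2 was read above.

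Of 21 other stress genes linked to ATF4, 8 were read on the other strand, with 2 rising between the treated groups and 0 falling. CEBPB, a partner of ATF4, averaged 70.7 ± 16.3 CPM at CEBPB-AS1 with CPA and synta-66, 40.2 ± 5.17 CPM with CPA and 29.2 ± 9.63 CPM without treatment (SD, n = 4), a rise of 0.82 ± 0.17 between the treated groups (edgeR adjusted p = 0.000863). WIPI1, a protein of autophagosome formation, averaged 19.7 ± 3.02, 9.72 ± 3.9 and 4.28 ± 0.977 CPM at ENSG00000267009 in the same order, a rise of 1.01 ± 0.28 between the treated groups (edgeR adjusted p = 0.017). HERPUD1, a protein of endoplasmic reticulum quality control, had 1.62, 4.51, 7.37 and 6.09 CPM at its own row with CPA and synta-66, 4.65, 0.93, 1.43 and 1.3 CPM with CPA, and 0.208, 0, 0 and 0 CPM in untreated cells. It was called against untreated in both treated groups (edgeR adjusted p = 6.93e-05 with synta-66 and 0.00361 without). DESeq2 gave no adjusted p for it with CPA alone, so that call was made by edgeR only. No fold is given because the untreated libraries held at most 1 read.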

How the data were processed

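The authors deposited unnormalized read counts for each gene of each library. Per the labels' protocols, reads were checked with FastQC 0.11.5, trimmed with Trimmomatic 0.32 (0.36 in the submitters' processing notes), aligned with STAR 2.5.2a to GRCh38 and counted as a stranded library with HTSeq 0.6.1p1 on Ensembl 84 genes. No source used here names the library kit. The 5 closing rows of unassigned reads were left out, and 3.58% to 9.4% of uniquely aligned reads were assigned to genes.

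Overlaps and coordinates come from GENCODE 44 on GRCh38, whose exons may differ from the annotation counted. The tests used edgeR 4.0.16 (R 4.3.3) on these counts, with TMM scaling, a minimum of 5 reads in 2 libraries of a group, and 1 fit of all 12 libraries, with Benjamini-Hochberg adjustment over 14911 rows. The steps were tested on simulated data. CPM values use TMM-scaled library sizes. Replicate pairs differed by more than sampling noise, so none was counted as 1 sample.

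The genes, the other lists and the tests were chosen with earlier results of these data known. Values for every library are given for genes called in at least 1 comparison with a group mean of at least 1 CPM, and for ATF4, TRIB3, CHAC1 and ASNS. From each other list up to 4 called genes per comparison with the largest group mean are named. SLC1A5, SLC7A5, CARS1 and SHMT2 at the feature on the other strand, and the few uncalled genes given by their means, were added after their values were seen. The promoter table lists each start site of a gene, and all were searched. The alternatives tried were RLE or upper-quartile scaling, DESeq2 1.42.0, filterByExpr, no filter, no minimum fold, an overlap of 100 bases, the 2 compared groups alone, the replicate number as a block, and libraries left out. A few results on single genes are not reported here.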

Additional observations from a re-analysis of the deposited data

Results flagged for a closer look

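In 7 of 51 groups of 4 libraries examined, 1 library lay far from the others, by a rule that chance meets in about 1 in 20 groups. At own rows, ASNS had 3.48 CPM in CPA with synta-66 replicate 4, against 0 to 0.451 CPM in the other 3 libraries. SHMT2 had 3.48 CPM in CPA replicate 3, where the others had 6.19 to 6.48 CPM. SLC3A2 had 13.1 CPM in untreated replicate 3, where the others had 7 to 7.91 CPM, and STC2 had 4.4 CPM in untreated replicate 2, where the others had 8.33 to 9.06 CPM.

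At features on the other strand, SLC1A5 had 1234 CPM in CPA with synta-66 replicate 3, where the others had 1424 to 1453 CPM. VLDLR had 30.9 CPM in CPA with synta-66 replicate 4, where the others had 19.6 to 21.1 CPM, and SLC7A5 had 707 CPM in untreated replicate 4, where the others had 753 to 760 CPM. CPA with synta-66 replicate 4 and untreated replicate 3 are also among the 3 libraries rich in mitochondrial ribosomal RNA. The part of that RNA in these values was not tested.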

How the results depend on the processing

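All 23 named changes of genes on the list kept their direction under the 20 settings tried, and 9 of the 14 called ones kept their call. The other 5, SLC3A2, STC2, SARS1 against untreated, WARS1 at its own row and VLDLR against untreated with synta-66, are given with the values that ended their calls above. Of the 9 changes with adjusted p under 0.05 but less than 1.5-fold, SHMT2 against CPA and CARS1 against untreated lost that p on leaving out single libraries, with highest adjusted p of 0.0822 and 0.069. For CPA with synta-66 against CPA, the 5 called own rows became 2 without the 3 libraries rich in non-unique alignments and mitochondrial ribosomal RNA, and 3 to 6 on leaving out single libraries, with 3 without CPA with synta-66 replicate 3 or CPA replicate 2. The 1 called feature on the other strand became 2 with DESeq2, RLE scaling, upper-quartile scaling and filterByExpr, each adding SLC1A5, 6 with no minimum fold, and 1 to 3 on leaving out single libraries, with 3 without CPA replicate 1 and 2 without CPA with synta-66 replicate 3 or CPA replicate 3. For CPA against untreated, the 1 called feature on the other strand became 3 with no minimum fold. The causes were not tested. Other scalings moved the median of all rows by at most 0.033 on the log2 scale.

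Same-numbered libraries of different groups did not deviate together (r from -0.0237 to 0.054 over 12 pairs, and from -0.0712 to 0.0786 over 36 pairs with different numbers), so the numbers were not taken as pairing. With the replicate number as a block, 5 own rows and 1 feature on the other strand were called between the treated groups, 3 and 4 with CPA and synta-66 against untreated, and 0 and 1 with CPA against untreated, the counts of the fit without it. Depth limits the own rows most: 22 of 34 were under 10 CPM in every group.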
